A study of Mus musculus with 15 samples.

Results

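The comparison described here sets mouse prostate epithelial lines transformed by ha-ras (Ras lines) against lines transformed by v-src (Src lines). The 6 arrays were chosen by their titles, 3 for each oncogene, out of 15 in the series, and no control array enters the contrast. All lines came from primary epithelial cultures of the ventral prostate of FVB mice that were transduced with 1 oncogene each, and were grown in DMEM with serum to 85 to 90% confluence with no other treatment. The other 9 arrays are lines transformed by c-myc (Myc) or neuT (NeuT) and untransduced primary cultures (control). The control cultures were kept in a primary culture medium until the night before harvest. These 9 arrays serve below as reference levels, and they also entered the choice of probe set for each gene and some alternative fits. According to the study design each oncogene is represented by 3 lines. The labels do not say whether these are separate clones or animals, so the p-values measure the spread between these arrays, and the promoter that drives each oncogene is not given in the sources used here. The question is how 2 transformed states that started from the same kind of cell differ from each other.

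Ras proteins are membrane-bound GTPases that switch on the Raf, MEK and ERK kinase cascade and PI3-kinase. Src is a tyrosine kinase held at the membrane, and its viral form v-src lacks the inhibitory tail, which leaves it active; it phosphorylates focal adhesion, junction and podosome proteins and also feeds into Ras and STAT3 signalling. The prostate epithelium has a basal layer, marked by keratins 5 and 14 and the transcription factor p63, and a luminal layer, marked by keratins 8 and 18, and its cells are held together by E-cadherin, tight junctions and desmosomes. In an epithelial to mesenchymal transition these adhesion genes are lost and genes such as those of vimentin, N-cadherin and the Zeb repressors are gained.

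Values are log2 expression levels from the deposited table, where the median of all gene values was 6.47 and 1 unit is a 2-fold difference. Differences are Ras minus Src with the SE from limma, so a negative value means a higher level in Src. The Ras arrays were less alike than the Src arrays: at least 185 of the 19938 genes differed 2-fold or more between any pair of Ras arrays and 3 to 10 between pairs of Src arrays, against 1153 to 1359 between a Ras and a Src array. Ras 3 held interferon response genes at a higher level than Ras 1 and Ras 2, and results that rest on it are given with and without it. The transduced genes could be checked only in part. The level of Src was 6.86, 6.88 and 6.85 in Ras 1 to Ras 3 and 7.08, 7.07 and 7.10 in Src 1 to Src 3, with a difference of -0.22 ± 0.08 (adjusted p = 0.0827). This probe set was designed for the mouse gene and need not read v-src. Hras is not analysed here, since no single-gene probe set reads it, and Nras, its close relative, did not pass the test either (-0.14 ± 0.08, adjusted p = 0.283).

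The lines differed by large amounts in a limited set of genes, and epithelial genes that were low in Ras were among the largest differences. Of 19938 genes, 1084 (5.44%) met both criteria for a call, a 2-fold difference and an adjusted p under 0.05: 581 (2.91%) were higher in Ras and 503 (2.52%) higher in Src. Of these, 314 differed at least 4-fold, and 20 called genes were at least 16-fold higher in Ras and 27 at least 16-fold higher in Src. With the p criterion alone, the criterion used below for members of gene lists ("passed"), 2159 genes (10.8%) were higher in Ras and 2271 (11.4%) higher in Src, and the median difference over all genes was -0.05. Without Ras 3, 1113 genes (5.58%) were called, and 1002 genes were called in both fits with the same direction, which is 92.4% of the first set and 90% of the other. In data simulated with 200 changed genes and the spreads of these arrays, 8.79 to 10.3% of the genes that passed were false with 6 arrays. The simulated share was 22.9 to 88.9% without Ras 3, but there the spread was still that of all 3 Ras arrays. The real data also hold far more genes that passed, so these shares do not give the false share here. A gene that passed only without Ras 3 rests on fewer arrays and is the less certain. The 3 Ras arrays lay wholly above or below the 3 Src arrays for 7801 genes (39.1%), a share that serves as the background for the statements on overlap below.

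**Figure D1:**
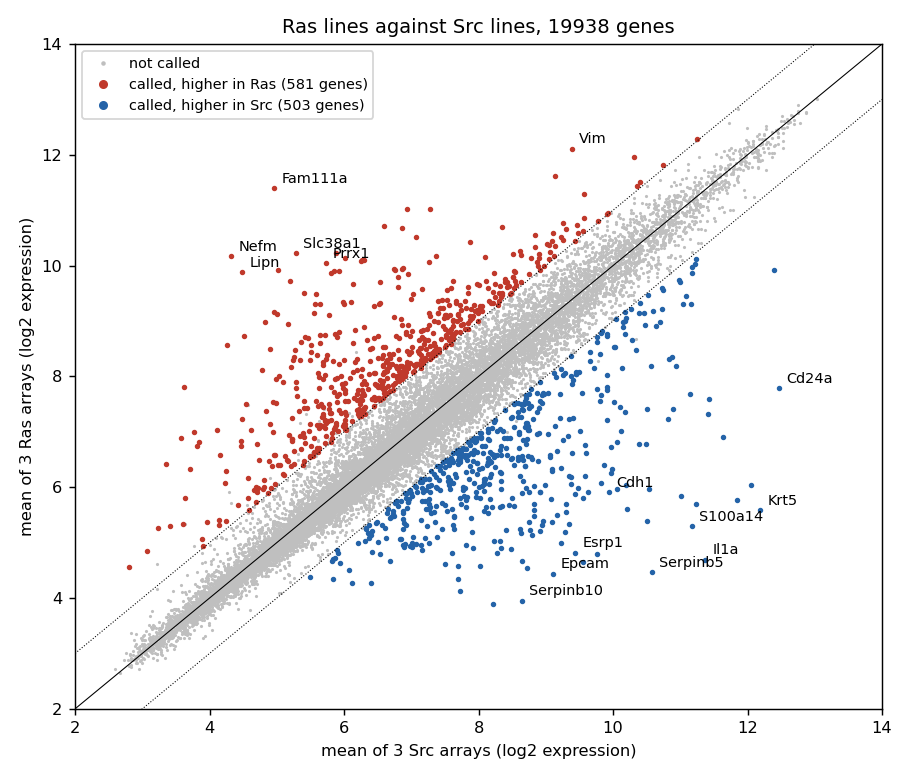
Mean log2 level of each of 19938 genes in the 3 Src arrays (horizontal) and the 3 Ras arrays (vertical); red and blue points are the 581 and 503 called genes, the solid line marks equal levels and the dotted lines a 2-fold difference. Krt5, Il1a, Serpinb5 and Cd24a lie far to the lower right, Fam111a, Nefm and Lipn far to the upper left.

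Basal keratins were among the widest differences. Of 9 measured basal keratins and p63, 8 were higher in Src and 0 higher in Ras, with a median difference of -3.39. Krt5 read 5.64, 5.66 and 5.47 in Ras 1, Ras 2 and Ras 3 and 12.19, 12.13 and 12.25 in the Src arrays. The 6 values fall into 2 tight sets, and the Src arrays exceeded even the control mean of 10.96. The Ras level was close to the NeuT mean of 5.70, and the Myc mean was 9.23. The difference between Ras and Src was -6.60 ± 0.09, a 97.2-fold lower level in Ras (limma adjusted p = 7.64e-09). For Krt14 the Ras arrays gave 6.43, 5.67 and 6.02 and the Src arrays 12.05, 12.0 and 12.11. Krt14, the partner of keratin 5, was lower in every Ras array than in any Src array (-6.02 ± 0.17, adjusted p = 2.47e-07). Krt6a (-5.17 ± 0.11), Krt17 (-3.67 ± 0.11) and Krt16 (-3.30 ± 0.31), keratins of activated or hyperproliferative keratinocytes, were lower in Ras as well. Krt6a was also low in NeuT (mean 5.94, Ras mean 5.85), while Krt14 was higher in NeuT (mean 8.31) than in Ras (mean 6.04). Trp63 measured 6.30, 6.25 and 6.04 across the Ras arrays and 9.58, 9.51 and 9.66 across the Src arrays. Trp63 encodes p63, which keeps basal cells in their state; its level in Ras was close to that of the Myc (6.05) and NeuT (6.19) lines, while the Src arrays lay above the control mean of 7.85. The difference was -3.39 ± 0.10 (adjusted p = 2.49e-07). Krt75, at -0.25 ± 0.12, did not pass.

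Simple epithelial keratins were also lower in Ras, where 5 of 6 measured members passed in that direction and 0 in the other (median difference -2.26); the first count was 3 when Ras 2, Ras 3, Src 1 or Src 3 was left out. Krt7 stood at 5.75, 5.76 and 5.77 in the Ras arrays and at 11.85, 11.80 and 11.89 in the Src arrays. Krt7 was flat among the Ras arrays, and its Src level was close to that of the Myc, NeuT and control groups (means 11.89, 12.14 and 12.08), with a difference of -6.09 ± 0.08 (adjusted p = 7.64e-09). Krt8, a luminal keratin, was lower in Ras too (-3.83 ± 0.12). Its partner Krt18 was uneven: it read 9.83, 6.58 and 5.80 in the Ras arrays and 10.55, 10.42 and 10.55 in the Src arrays. Ras 1 kept a level near that of the Src arrays while Ras 2 and Ras 3 did not, and the difference of -3.10 ± 0.86 (adjusted p = 0.034) became -2.30 without Ras 3, with an adjusted p of 0.0741. Krt19 was lower in Ras by a smaller margin (-1.42 ± 0.28), and Krt20 (0.05 ± 0.09) did not pass.

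**Figure D2:**
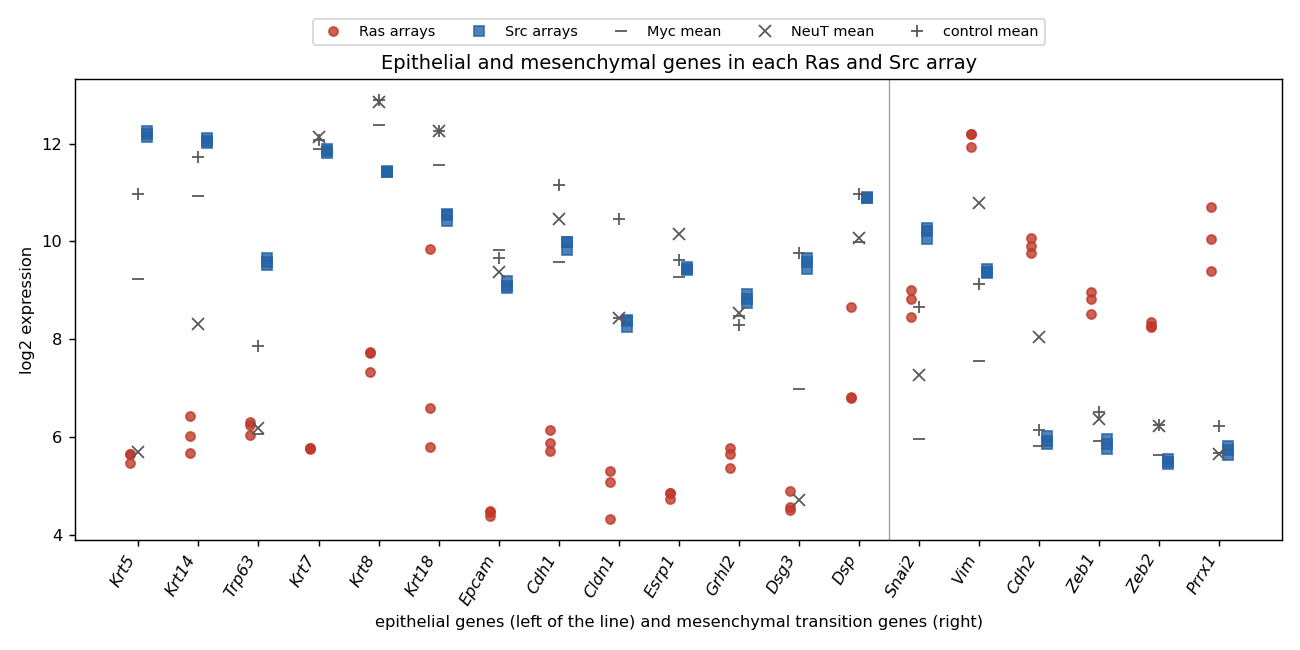
Log2 level of 19 genes in each Ras array (red circles) and each Src array (blue squares), with the means of the Myc, NeuT and control groups as grey signs; epithelial genes are left of the line and mesenchymal transition genes right of it. The Ras arrays lie below the Src arrays for all 13 epithelial genes and for Snai2, and above them for Vim, Cdh2, Zeb1, Zeb2 and Prrx1.

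The genes that join epithelial cells to each other were lower in Ras. Of 24 measured adherens and tight junction genes 15 were higher in Src and 1 higher in Ras (median -0.75). The level of Epcam was 4.46, 4.47 and 4.38 in Ras 1 to Ras 3 and 9.18, 9.09 and 9.05 in Src 1 to Src 3. Epcam, an epithelial adhesion molecule, did not overlap between the lines and was lower in Ras by 25.4-fold (-4.67 ± 0.09, adjusted p = 2.46e-08). Cdh1 read 5.88, 6.14 and 5.71 in Ras 1, Ras 2 and Ras 3 and 9.99, 9.83 and 9.99 in the Src arrays. Cdh1 encodes E-cadherin, the core of the adherens junction; its Src level lay between the Myc mean of 9.58 and the NeuT mean of 10.45, and the difference was -4.03 ± 0.12 (adjusted p = 2.61e-07). The claudin genes Cldn1 (-3.43 ± 0.22) and Cldn4 (-2.55 ± 0.15) and the P-cadherin gene Cdh3 (-3.0 ± 0.16) were lower in Ras too. The cytoplasmic partners were mixed, and Patj was lower in Ras as well (-1.95). Tjp1, Ctnna1 and Ctnnb1, which link junctions to actin, were bright in both lines and did not pass (0.17 ± 0.09, 0.26 ± 0.09 and -0.35 ± 0.14), although Ctnnb1 reached -0.51 with an adjusted p of 0.00739 without Ras 3.

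Regulators of the epithelial state were among the most uniform differences, with 15 of 18 measured members higher in Src and 0 higher in Ras (median -1.51). For Esrp1 the Ras arrays gave 4.86, 4.72 and 4.86 and the Src arrays 9.43, 9.40 and 9.48. Esrp1, a splicing factor that sets epithelial exon choice, was near the lower end of the scale in all Ras arrays and differed by -4.62 ± 0.09 (adjusted p = 2.46e-08). Grhl2 (-3.23 ± 0.12) and Ehf (-2.80 ± 0.13) are epithelial transcription factors, Rab25 (-3.14 ± 0.17) and Ap1m2 (-2.30 ± 0.09) serve polarised membrane traffic, and St14 (-3.0 ± 0.10) with its inhibitor Spint2 (-2.0 ± 0.12) forms a surface protease system. All were higher in Src. Ovol1, Ovol2 and Elf5 did not pass (-0.30 ± 0.11, -0.27 ± 0.10 and 0.02 ± 0.10).

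Desmosome genes followed, with 10 of 13 members higher in Src and 1 higher in Ras (median -2.03). Dsg3 measured 4.51, 4.56 and 4.89 across the Ras arrays and 9.58, 9.43 and 9.65 across the Src arrays. Dsg3, a desmosomal cadherin of basal cells, was as low in Ras as in NeuT (mean 4.70) and differed by -4.90 ± 0.12 (adjusted p = 1.12e-07). Dsp stood at 6.82, 6.79 and 8.65 in the Ras arrays and at 10.89, 10.89 and 10.91 in the Src arrays. Desmoplakin (Dsp) was higher in Ras 3 than in the other Ras arrays yet below all Src arrays; its difference was -3.48 ± 0.43 with all arrays and -4.09 without Ras 3. Jup (-2.52 ± 0.11), Perp (-2.51 ± 0.13) and Pkp1 (-1.70 ± 0.10) were higher in Src, and Pkp4 and Ppl did not pass (0.01 ± 0.09 and -0.14 ± 0.14). Among 8 measured genes of hemidesmosomes and laminin-332, which anchor basal cells to the basement membrane, 4 were higher in Src (Lama3 -2.81 ± 0.22, Itgb4 -2.07 ± 0.20, Lamb3 -1.98 ± 0.09 and Col17a1 -1.68 ± 0.12) and 2 higher in Ras (Dst 1.43 ± 0.13 and Cd151 0.56 ± 0.13), a count that was 1 without Ras 1, Src 1 or Src 2. Itga6 was bright in both lines and did not pass (-0.18 ± 0.13).

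The promoters of these genes, where a window was available, were searched for the E-box CAGGTG, which reads CACCTG on the other strand. Snail and Zeb repressors are known to bind this sequence. Each window searched runs from 250 bases before to 50 bases after a RefSeq start site on GRCm38.p6, and a gene with several windows counts once, as holding the motif if any of them does. The 250 bases before the start are shown for 3 genes chosen because they hold the motif and have large differences above; capitals mark the E-box. The windows of Krt14, Cldn1 and Jup, which also differed by wide margins, hold none. Several genes named above, among them Cdh1 and Esrp1, had no window and were not searched. Of 13 desmosome genes only 3 had one. The Epcam stretch is chr17:87635729-87635978 on the plus strand, the Krt5 stretch chr15:101712906-101713155 on the minus strand, and the Krt7 stretch chr15:101412153-101412402 on the plus strand.
Epcam: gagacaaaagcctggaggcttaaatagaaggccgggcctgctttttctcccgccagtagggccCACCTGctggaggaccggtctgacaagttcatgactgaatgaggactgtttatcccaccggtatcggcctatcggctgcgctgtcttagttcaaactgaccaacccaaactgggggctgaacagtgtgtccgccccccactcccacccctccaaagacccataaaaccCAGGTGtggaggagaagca
Krt5: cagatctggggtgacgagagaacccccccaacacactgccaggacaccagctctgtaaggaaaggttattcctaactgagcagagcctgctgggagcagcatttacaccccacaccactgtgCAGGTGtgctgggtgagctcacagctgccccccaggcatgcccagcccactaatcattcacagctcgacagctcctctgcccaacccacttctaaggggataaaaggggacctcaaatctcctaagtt
Krt7: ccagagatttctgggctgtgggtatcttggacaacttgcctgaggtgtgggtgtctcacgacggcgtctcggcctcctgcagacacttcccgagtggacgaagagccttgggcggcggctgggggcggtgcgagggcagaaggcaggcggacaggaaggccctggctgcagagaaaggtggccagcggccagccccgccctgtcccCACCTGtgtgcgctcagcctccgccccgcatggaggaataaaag
Counted from the start site, the 2 matches in Epcam begin at -187 and -19, the match in Krt5 at -128 and that in Krt7 at -44. Of the called genes higher in Src, 360 had a promoter window and 131 (36.4%) held the motif, against 75 of 403 (18.6%) for genes higher in Ras and 3465 of 15614 (22.2%) for all genes with a window. In the junction list 12 of 19 genes with a window held it, and among epithelial regulators 6 of 9. These counts take in members whatever their difference, and some that held the motif hardly differed, such as Crb3 (-0.14) and Elf5 (0.02). The AP-1 motif TGANTCA was present for 13.6% of the genes with a window that were higher in Src and 13.9% of those higher in Ras, against 8.08% of all. A match is a property of the sequence, and whether any factor sits there was not measured.

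Mesenchymal transition genes were higher in Ras: 12 of 18 measured members passed in that direction and 1 in the other, with a median of 0.80. The level of Cdh2 was 10.07, 9.90 and 9.75 in Ras 1 to Ras 3 and 5.92, 5.86 and 6.01 in Src 1 to Src 3. N-cadherin (Cdh2) was higher in every Ras array by more than 3 units and differed by 3.98 ± 0.11 (adjusted p = 1.48e-07). Vim read 12.19, 11.94 and 12.19 in Ras 1, Ras 2 and Ras 3 and 9.35, 9.38 and 9.42 in the Src arrays. Vim encodes the intermediate filament vimentin and was already at a moderate level in Src; the difference was 2.72 ± 0.10 (adjusted p = 7.59e-07). For Zeb1 the Ras arrays gave 8.81, 8.52 and 8.95 and the Src arrays 5.76, 5.97 and 5.86. Zeb1 (2.90 ± 0.12, adjusted p = 1.81e-06) and Zeb2 (2.80 ± 0.08), repressors of E-cadherin, were close to the Myc, NeuT and control levels in Src and above all of them in Ras. Prrx1 measured 9.39, 10.71 and 10.04 across the Ras arrays and 5.73, 5.64 and 5.81 across the Src arrays. The homeobox gene Prrx1 varied among the Ras arrays but none came near the Src arrays (4.32 ± 0.28, adjusted p = 1.79e-05). The exception was Snai2: it read 8.82, 9.01 and 8.45 in the Ras arrays and 10.21, 10.06 and 10.27 in the Src arrays. This repressor of the Snail family was higher in every Src array, by 1.42 units (-1.42 ± 0.14, adjusted p = 0.000243). Snai1 (0.02 ± 0.10) and Twist2 (-0.11 ± 0.11) did not pass, nor did fibronectin (Fn1, 1.02 ± 0.35, adjusted p = 0.0762), which passed without Ras 3 (1.39, adjusted p = 0.0101) and was highest in the NeuT group (mean 12.39).

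Matrix genes went both ways, with 7 of 34 collagen and matricellular genes higher in Ras and 8 higher in Src (median 0.00). Nid1 stood at 10.55, 9.89 and 10.24 in the Ras arrays and at 5.93, 5.70 and 6.03 in the Src arrays. Nidogen (Nid1), a basement membrane linker, was higher in Ras by 4.34 ± 0.17 (adjusted p = 9.92e-07), and Dcn, the small proteoglycan decorin, by 2.96 ± 0.32. The level of Thbs1 was 7.73, 7.40 and 6.82 in Ras 1 to Ras 3 and 11.37, 11.44 and 11.44 in Src 1 to Src 3. Thrombospondin 1 (Thbs1) was higher in Src (-4.10 ± 0.20, adjusted p = 3.84e-06), as were tenascin C (Tnc, -3.25 ± 0.16), Tgfbi (-2.98 ± 0.12) and Col8a1 (-2.11 ± 0.21). Fibrillar collagen genes Col1a1 (-0.11 ± 0.09) and Col1a2 (-0.19 ± 0.11) did not pass. Of 16 other integrin genes, 3 were higher in Ras, led by the fibronectin receptor subunit Itga5 (1.60 ± 0.12), and 5 were higher in Src, led by the epithelial subunit Itgb6 (-3.70 ± 0.10).

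Among matrix proteases and their inhibitors 9 of 24 were higher in Ras and 4 higher in Src (median 0.11). Serpinb5 read 4.34, 4.48 and 4.58 in Ras 1, Ras 2 and Ras 3 and 10.69, 10.55 and 10.49 in the Src arrays. Serpinb5, the gene of maspin, was lower in Ras than in all other groups, whose means were 9.30 (Myc), 9.45 (NeuT) and 9.59 (control), and the difference was -6.11 ± 0.10 (adjusted p = 1.49e-08). For Timp1 the Ras arrays gave 10.41, 9.99 and 10.15 and the Src arrays 7.26, 7.32 and 7.54. The metalloprotease inhibitor Timp1 (2.81 ± 0.13, adjusted p = 2.69e-06) and Serpinb2, an inhibitor of plasminogen activators (2.48 ± 0.14), were higher in Ras. The activators themselves parted: Plat was higher in Ras (1.49 ± 0.18) and Plau higher in Src (-1.41 ± 0.32). Mmp13 was bright in both lines, did not pass (0.12 ± 0.25) and was far lower in the other groups (means 5.88, 5.55 and 6.10 in Myc, NeuT and control). Mmp3 measured 9.94, 10.29 and 7.91 across the Ras arrays and 7.67, 7.14 and 7.54 across the Src arrays. Mmp3 passed with all arrays (1.93 ± 0.53, adjusted p = 0.0333), but Ras 3 lay near the Src level, and without it the difference was 2.67.

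Several of the genes with the largest differences belong to none of these groups. Fam111a stood at 11.34, 11.38 and 11.47 in the Ras arrays and at 5.46, 4.63 and 4.80 in the Src arrays. Fam111a, a protease gene linked to DNA replication, was high in the Ras arrays and in all other groups (Myc 9.98, NeuT 10.06, control 8.65), and low in the Src arrays, and its Ras level was also more than 2-fold above the Myc and NeuT means; the difference was 6.43 ± 0.19, or 86.5-fold (adjusted p = 2.51e-07). Low levels in the Src arrays alone were also found for Slc38a1, a transporter of glutamine and other neutral amino acids (4.94 ± 0.13, Src mean 5.29, Myc mean 9.93), and Zbtb10, a zinc finger gene (4.21 ± 0.20, Src mean 4.52, Myc mean 8.31). The level of Nefm was 9.55, 10.99 and 9.98 in Ras 1 to Ras 3 and 4.31, 4.45 and 4.22 in Src 1 to Src 3. Nefm, a neurofilament subunit, was high in the Ras arrays alone, with means of 4.50, 4.62 and 4.39 in Myc, NeuT and control, and differed by 5.84 ± 0.31 (adjusted p = 5.9e-06). Its partner Nefl passed in the same direction at a much lower level (0.98 ± 0.14).

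Others high in Ras were the lipase family gene Lipn (5.40 ± 0.30), Calcrl, the receptor subunit for adrenomedullin and calcitonin gene-related peptide (4.91 ± 0.18), the cytosolic DNA sensor gene Aim2 (4.53 ± 0.27), the secreted hormone gene Stc1 (4.12 ± 0.17), the phosphodiesterase gene Pde3b (4.31 ± 0.18), P2ry10b (4.19 ± 0.10), Qpct, which encodes glutaminyl cyclase (4.16 ± 0.30), and Serpinb9b (4.12 ± 0.29). Serpinb9b and Pde3b were high in the control group as well (means 9.85 and 7.72). Marchf11, which encodes a membrane ubiquitin ligase, was higher in Ras by its brighter probe set (4.19 ± 0.41), while its other probe set gave -0.17 with an adjusted p of 0.197, so its probe sets disagreed. Cd34 read 10.74, 11.20 and 11.09 in Ras 1, Ras 2 and Ras 3 and 7.38, 6.78 and 7.68 in the Src arrays. Cd34, a surface sialomucin of blood progenitors and vessels, was higher in Ras (3.74 ± 0.22, adjusted p = 1.14e-05). It was 1 of 14 haematopoietic genes higher in Ras, against 3 higher in Src (5 without Ras 2), the transcription factor genes Runx1 (-1.97 ± 0.16), Hhex (-1.24 ± 0.21) and Ikzf2 (-1.06 ± 0.10), and the median of the list was -0.17.

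Of the genes higher in Src, Il1a read 4.69, 4.36 and 5.03 in the Ras arrays and 11.43, 11.31 and 11.37 in the Src arrays. Il1a, the gene of the cytokine interleukin-1 alpha, had the largest difference of all genes tested (-6.68 ± 0.16, or 102-fold, adjusted p = 8.67e-08). The Myc and NeuT lines had it at 11.21 and 10.84, whereas the control mean was 5.88. The Ras lines were the only lines without the high level, and every Ras array lay below every control array (5.46 to 6.37). S100a14 (-5.87 ± 0.09), Bst1, a surface enzyme of the ADP-ribosyl cyclase family (-4.97 ± 0.12), and the growth factor carrier Igfbp3 (-5.52 ± 0.14) were low in Ras and high in every other group. For Serpinb10 the Ras arrays gave 3.74, 4.18 and 3.95 and the Src arrays 8.59, 8.84 and 8.50. Serpinb10 was high in the Src arrays alone (-4.69 ± 0.14, adjusted p = 2.49e-07), with means of 3.85, 3.84 and 4.60 in Myc, NeuT and control. Il1f9, which encodes an interleukin-36 cytokine (-5.11 ± 0.18), and S100a9 (-4.10 ± 0.16) and S100a8 (-3.47 ± 0.25), the subunits of calprotectin, were also higher in Src. Cd24a measured 9.16, 5.88 and 8.33 across the Ras arrays and 12.51, 12.50 and 12.42 across the Src arrays. Cd24a, a surface glycoprotein of epithelial cells, varied more than 3 units among the Ras arrays and still did not overlap (-4.68 ± 0.69, adjusted p = 0.0017), and Ppbp, a chemokine precursor gene, was also lowest in Ras 2 (-4.73 ± 0.55).

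Genes downstream of the oncogenes themselves were less one-sided. Of 23 genes of ERK feedback and output 9 were higher in Ras and 7 higher in Src (median 0.03); without Src 3 the latter count was 4. Etv1 stood at 9.74, 9.73 and 10.21 in the Ras arrays and at 5.54, 6.17 and 5.85 in the Src arrays. Etv1, an ETS factor gene, was higher in Ras by 4.04 ± 0.18 (adjusted p = 2.54e-06), and the feedback inhibitors Dusp4 (1.19 ± 0.14), Spry2 (1.04 ± 0.10) and Spred1 (0.88 ± 0.11) were higher in Ras too. Fosl1 (-0.04 ± 0.12) and Ier3 (0.03 ± 0.14), which also respond to ERK, did not pass. The level of Myc was 8.62, 8.72 and 9.45 in Ras 1 to Ras 3 and 10.53, 10.29 and 10.60 in Src 1 to Src 3. Myc was higher in Src (-1.54 ± 0.21, adjusted p = 0.00109), where it was near the NeuT mean of 10.97, and Epha2 (-1.0 ± 0.22) and Phlda1 (-0.77 ± 0.12) were higher in Src as well.

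Of 30 Ras pathway members 8 were higher in Ras and 3 higher in Src (median 0.07), and only Rassf8 reached a 2-fold difference (1.66 ± 0.12). The GTPase-activating genes Nf1 (0.73 ± 0.13), Rasa1 (0.65 ± 0.09), Rasa2 (0.72 ± 0.09) and Rasal2 (0.56 ± 0.09), whose products switch Ras off, were all higher in Ras. The kinase genes Map2k1 and Map2k2 went opposite ways (0.54 ± 0.12 and -0.60 ± 0.09). Of 14 Src family kinases and regulators 2 were higher in each line (median -0.11), with 1 higher in Src without Src 2 or without Src 3. Fyn read 8.52, 8.47 and 8.15 in Ras 1, Ras 2 and Ras 3 and 5.82, 5.59 and 5.82 in the Src arrays. Fyn, a Src family kinase, was higher in Ras (2.64 ± 0.12, adjusted p = 2.91e-06), and Frk, a family member of epithelia, higher in Src (-1.60 ± 0.21). Of 22 Src substrate, focal adhesion and podosome genes 8 were higher in Src and 1 higher in Ras (median -0.36), a count that was 4 without Src 3. The Src substrate Cdcp1 (-2.0 ± 0.17), the podosome scaffold gene Sh3pxd2a (-1.31 ± 0.12), and Bcar1 (-0.44 ± 0.09) and Pxn (-0.39 ± 0.08), focal adhesion adaptors, were higher in Src, and Tln1 higher in Ras (0.56 ± 0.09). Cttn, Vcl and Cav1 did not pass (-0.15 ± 0.10, -0.06 ± 0.09 and -0.65 ± 0.25). Of 20 STAT3 output genes 1 was higher in each line: Lcn2 in Ras (1.68 ± 0.14) and Socs3 in Src (-0.46 ± 0.09), with 5 higher in Ras when Ras 2 was left out and 2 higher in Src when any 1 Ras array was.

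Receptors and ligands of the ERBB family split by line, with 3 of 15 higher in Ras and 5 higher in Src (median -0.13, and 0.02 without Ras 3). For Egfr the Ras arrays gave 6.30, 6.86 and 6.25 and the Src arrays 8.17, 8.14 and 8.20. The receptor genes Egfr (-1.70 ± 0.16, adjusted p = 0.000134), Erbb3 (-1.01 ± 0.21) and Erbb2 (-0.53 ± 0.08) and the ligand gene Nrg1 (-2.21 ± 0.22) were higher in Src. Ereg, the gene of the ligand epiregulin, was higher in Ras (1.42 ± 0.16), together with Lrig1 (1.06 ± 0.09) and Errfi1 (0.98 ± 0.13), which restrain these receptors. Of 38 other growth factor and receptor genes 7 were higher in Ras and 6 higher in Src (median -0.07). Fgf7 measured 8.83, 9.70 and 9.41 across the Ras arrays and 5.71, 5.56 and 5.64 across the Src arrays. Fgf7, normally made by stromal cells, was higher in Ras (3.68 ± 0.20, adjusted p = 6.39e-06), while its epithelial receptor gene Fgfr2 was higher in Src (-1.73 ± 0.08) and Fgfr1 higher in Ras (1.34 ± 0.10). Met (-1.30 ± 0.11) and the FGF carrier gene Fgfbp1 (-3.25 ± 0.17) were higher in Src, and Angpt2 (1.87 ± 0.23) and Vegfd (1.55 ± 0.25) higher in Ras. Vegfa did not pass (-0.16 ± 0.12).

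Cytokine and chemokine genes also moved in both directions, 9 of 31 higher in Ras and 8 higher in Src (median -0.07). Ccl20 stood at 9.45, 8.74 and 9.01 in the Ras arrays and at 6.75, 6.75 and 6.73 in the Src arrays. Ccl20 (2.32 ± 0.16, adjusted p = 3.05e-05), Ccl5 (2.43 ± 0.11) and Ccl7 (1.75 ± 0.27), which attract leukocytes, and the alarmin gene Tslp (2.95 ± 0.20) were higher in Ras. Il6 was higher in Ras but dim (2.02 ± 0.38, Ras mean 5.26). Cxcl16 (-3.56 ± 0.24) and Cxcl5 (-2.38 ± 0.45) were higher in Src. Il33 was bright in both lines and did not pass (-0.11 ± 0.20), with means of 5.32 and 5.22 in Myc and NeuT. Of 15 S100 genes 4 were higher in Ras and 5 higher in Src (median 0.04), and S100a6 and S100a11, the brightest of them, did not pass (0.04 ± 0.10 and -0.13 ± 0.09).

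Developmental signalling genes were more often higher in Src. Of 28 TGF-beta and BMP genes 12 were higher in Src and 6 higher in Ras (median -0.30). The level of Inhba was 7.31, 8.21 and 6.16 in Ras 1 to Ras 3 and 10.73, 10.84 and 10.87 in Src 1 to Src 3. Inhba, which encodes a subunit of activin, was lowest in Ras 3 and below every Src array in all Ras arrays (-3.59 ± 0.42, adjusted p = 0.00052). Its antagonist gene Fst (-2.75 ± 0.31), the BMP target Id2 (-2.48 ± 0.15) and Tgfb2 (-1.82 ± 0.16) were higher in Src, and the co-receptor gene Tgfbr3 higher in Ras (1.39 ± 0.13). Of 35 Wnt genes 12 were higher in Src, or 8 to 14 with 1 array left out, and 0 higher in Ras, or 1 without Ras 3 (median -0.31). Those higher in Src included the receptor genes Fzd6 (-1.35 ± 0.11), Fzd1 (-1.14 ± 0.17) and Lgr4 (-1.72 ± 0.12) and the secreted inhibitor gene Sfrp1 (-1.78 ± 0.23). Lrp6 and Tcf7l2 did not pass (0.02 ± 0.09 and -0.18 ± 0.10).

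Of 17 Notch genes 6 were higher in Src and 0 higher in Ras (median -0.17). Jag1 read 6.16, 6.90 and 5.08 in Ras 1, Ras 2 and Ras 3 and 9.37, 9.37 and 9.40 in the Src arrays. The ligand gene Jag1 spread over nearly 2 units among the Ras arrays, all of them below Src (-3.33 ± 0.38, adjusted p = 0.000416), and Notch1 (-1.13 ± 0.13) and the target gene Hes1 (-1.43 ± 0.19) were higher in Src while Notch2 and Notch3 did not pass (0.05 ± 0.09 and -0.17 ± 0.11). Of 39 ephrin, semaphorin and other guidance genes 22 were higher in Src and 6 higher in Ras (median -0.51); the latter count was 2 to 3 without Ras 1 or without any 1 Src array. Sema3c (-3.46 ± 0.59), Robo1 (-2.46 ± 0.14), Robo2 (-2.43 ± 0.21) and Efnb2 (-1.23 ± 0.10) were higher in Src and Sema3a higher in Ras (2.16 ± 0.27). Of 23 YAP and SRF targets 5 were higher in Ras (3 without Src 1 or without Src 2) and 9 higher in Src (median -0.18), with Ankrd1 higher in Ras (1.61 ± 0.27) and Acta2 (-1.89 ± 0.30), Nt5e (-1.94 ± 0.16) and Ccn2 (-0.79 ± 0.15) higher in Src.

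Mitosis genes differed by small amounts. Of 23 mitosis genes 11 were higher in Ras, or 8 to 12 with 1 array left out, 0 higher in Src and 0 reached 2-fold (median 0.41). For Ccnb2 the Ras arrays gave 10.28, 10.09 and 10.43 and the Src arrays 9.44, 9.05 and 9.43. Ccnb2, a mitotic cyclin gene, showed the widest gap of this list (0.96 ± 0.14, adjusted p = 0.00149), followed by Kif20a (0.86 ± 0.11) and Cenpa (0.85 ± 0.12), while Cdk1 and Top2a did not pass (0.16 ± 0.09 and -0.08 ± 0.09). The other probe set of Top2a gave a difference of 1.26 (limma adjusted p = 0.00128), so the probe sets of this gene disagreed. Of 24 DNA replication genes 3 were higher in Src and 0 higher in Ras (median -0.06), and the first count was 1 without Ras 1 or Src 2 and 0 without Src 3. Of 22 ribosome biogenesis genes 9 were higher in Src, or 6 to 12 with 1 array left out, and 1 higher in Ras (median -0.36). Nolc1 led those higher in Src (-0.92 ± 0.15), and the exception was Gnl3 (0.52 ± 0.11), which did not pass without Src 3. Of 25 cyclin, CDK inhibitor and p53 target genes 2 were higher in Ras, among them Ccne2 (1.11 ± 0.16), and 6 higher in Src, among them Ccnd2 (-1.52 ± 0.17) and the p53 target Pmaip1 (-1.55 ± 0.16). Without Ras 2 the first count was 5.

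Cholesterol and fatty acid synthesis genes were lower in Ras, and Ras 3 departed from the other Ras arrays. With all arrays 11 of 24 members were higher in Src and 1 higher in Ras (median -0.55), and without Ras 3 17 were higher in Src and 0 higher in Ras (median -0.73). Leaving out any other single array gave 6 to 7 higher in Src, and the count higher in Ras was 2 without Ras 1 and 0 without any other array. Hmgcs1 measured 8.16, 8.01 and 9.25 across the Ras arrays and 9.43, 9.28 and 9.48 across the Src arrays. Hmgcs1, an early enzyme of cholesterol synthesis, was about 1 unit higher in Ras 3 than in Ras 1 and Ras 2, and its difference was -0.93 ± 0.29 (adjusted p = 0.0498) with Ras 3 and -1.32 (adjusted p = 0.000121) without it. Fads2, a fatty acid desaturase gene, was lower in all 3 Ras arrays (-1.99 ± 0.14). Of 26 glycolysis and hypoxia genes 3 were higher in Ras and 5 higher in Src, none of them at least 2-fold, and the median was 0.00. The first count was 8 without Ras 2 and 1 without Src 1 or Src 2, and the second was 3 without Src 2 and 1 without Src 3.

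Genes of prostate lineage were mostly higher in Src where they differed, 7 of 21 against 2 higher in Ras (median -0.13). Psca stood at 5.74, 5.16 and 5.12 in the Ras arrays and at 9.33, 9.12 and 9.59 in the Src arrays. Psca, a surface antigen of prostate epithelium, was high in Src and control (mean 8.72) and low in Ras (-4.01 ± 0.19, adjusted p = 2.69e-06). Sox9 (-2.11 ± 0.10), Sox2 (-1.94 ± 0.19) and Foxa1 (-1.05 ± 0.09), transcription factor genes of epithelial progenitors or luminal cells, were higher in Src, and Fkbp5, a steroid-responsive gene, higher in Ras (1.83 ± 0.11). Of 10 oncofetal genes 3 were higher in Ras, the imprinted gene Peg3 (3.90 ± 0.14) and the RNA-binding protein genes Igf2bp3 (3.07 ± 0.16) and Igf2bp1 (1.51 ± 0.11), and 2 higher in Src, Lin28b (-1.21 ± 0.11) and Hmga2 (-0.40 ± 0.12); the latter count was 1 when any array but Ras 2 was left out. Of 11 BEX and ARMCX genes 3 were higher in Ras (median -0.01), or 1 without any 1 array other than Ras 3, and of 9 caveolae genes 1, Cavin3 (1.18 ± 0.14), or 2 without Ras 2.

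**Figure D3:**
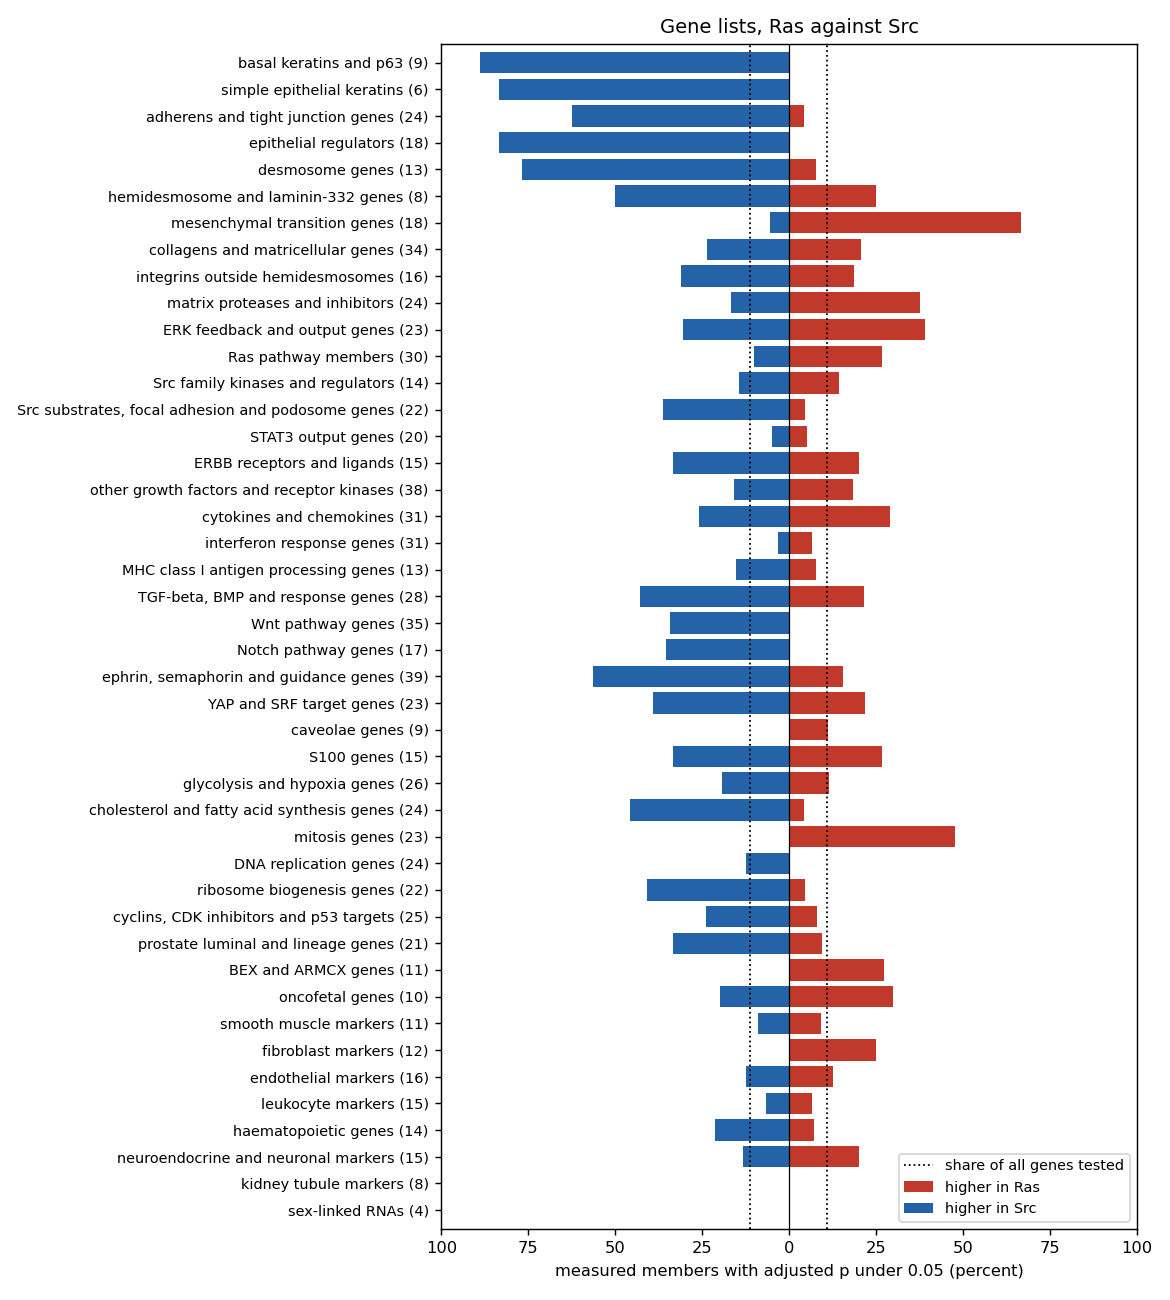
Share of the measured members of each of 44 gene lists with an adjusted p under 0.05, higher in Ras to the right (red) and higher in Src to the left (blue), with the number measured in brackets. The dotted lines mark the shares of all genes tested, 10.8% and 11.4%; basal keratins, simple keratins, regulators and desmosome genes reach far to the left, and mesenchymal and mitosis genes far to the right.

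Markers of other cell types were read for the same arrays. Of 12 fibroblast markers 3 were higher in Ras and 0 higher in Src, or 1 without Ras 2 (median 0.08): Dcn, Dpt (0.79 ± 0.14) and Col3a1 (0.50 ± 0.09), the last 2 at or below 6.92 in every Ras array, while 7 of the 12 were below the median level in both lines and Pdgfra did not pass (-0.40 ± 0.13). Fibroblast marker levels move with the mesenchymal genes for these 3 members, and their part in the result was not tested. Of 16 endothelial markers 2 were higher in each line, led by Flt1 (1.81 ± 0.40), and 13 were below the median level in both. The endothelial count higher in Src was 1 without Ras 1 or Src 1 and 0 without Ras 3, Src 2 or Src 3, and the count higher in Ras was 1 without Src 3. Of 15 leukocyte markers 1 was higher in each, with 0 higher in Ras without Ras 1 or without any 1 Src array, and 12 were below that level. Of 11 smooth muscle markers 1 was higher in each, with 2 higher in Ras without Ras 3. Of 15 neuroendocrine and neuronal markers 3 were higher in Ras and 2 higher in Src, the latter Tubb3 (-2.95 ± 0.24) and Gap43 (-2.30 ± 0.23), while Syp and Insm1 did not pass (0.02 ± 0.11 and 0.13 ± 0.13). None of 8 kidney tubule markers and none of 4 sex-linked RNAs passed under limma; the Y-linked gene Uty was at or below 4.52 in all Ras and Src arrays, against a control mean of 7.74.

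Each called gene was also set against the mean of the Myc and NeuT group means, as a description with no test. Where Myc and NeuT differ, a line can be away from that mean and still be close to 1 of these groups. Krt5, for example, counts as away in both lines, yet its mean was 5.59 in Ras, 5.70 in NeuT and 9.23 in Myc. Of the 581 genes higher in Ras, 333 (57.3%) were at least 2-fold away from that reference in the Ras lines alone, 60 (10.3%) in the Src lines alone, 29 in both and 159 in neither. Of the 503 genes higher in Src, 222 (44.1%) were away in the Ras lines alone, which is to say low in Ras, 158 (31.4%) in the Src lines alone, 41 in both and 82 in neither. Among called epithelial regulators 9 were of the first kind, 1 lay on both sides and 1 on neither. Esrp1 is one of the 9. Among called basal keratins and p63, 3 lay on the Src side, 4 on both and 1 on neither.

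**Figure D4:**
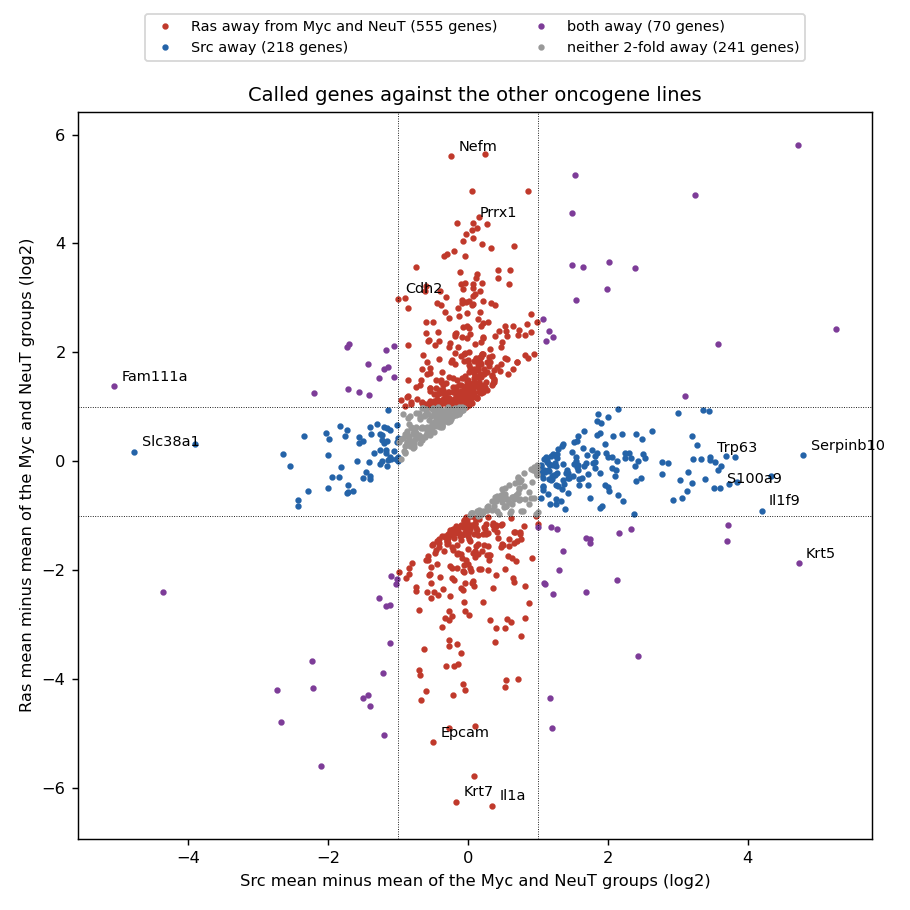
Each point is 1 of 1084 called genes, placed by its Src mean (horizontal) and its Ras mean (vertical), both minus the mean of the Myc and NeuT group means, in log2 units; dotted lines mark 2-fold. Red points (555 genes) are away from that reference in Ras alone, blue points (218) in Src alone, purple points (70) in both and grey points (241) in neither.

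Ras 3 stood apart from the other Ras arrays in interferon response genes. In that array 149 genes (0.747%) were at least 2-fold above the mean of Ras 1 and Ras 2 and 54 (0.271%) at least 2-fold below, which are descriptions of 1 array with no test. Among the 149 were 26 of 31 measured interferon response genes, which encode antiviral and related proteins switched on by interferon. The level of Rtp4 was 5.62, 5.37 and 10.95 in Ras 1 to Ras 3 and 5.36, 5.38 and 5.56 in Src 1 to Src 3. Rtp4 stood at the Src level in Ras 1 and Ras 2 and more than 5 units higher in Ras 3, and the difference between the lines did not pass with it (1.88 ± 1.27, adjusted p = 0.35) or without it (0.06, adjusted p = 0.794). Ifit3 read 6.43, 6.0 and 10.18 in Ras 1, Ras 2 and Ras 3 and 5.74, 6.40 and 5.97 in the Src arrays. Ras 3 was the highest of the 6 arrays for Ifit3 (1.50 ± 0.94, adjusted p = 0.311), and also for Oasl2 (1.17 ± 0.86), Usp18 (0.42 ± 0.82), Iigp1 (1.40 ± 0.93), Sp100 (1.80 ± 0.98) and Ddx60 (1.26 ± 0.79), none of which passed. Without Ras 3, Usp18 was lower in Ras (-0.75, adjusted p = 0.00417). For Trim30a the Ras arrays gave 6.99, 5.35 and 10.09 and the Src arrays 4.84, 4.51 and 4.37. Trim30a did not pass with all arrays (adjusted p = 0.068) and did without Ras 3 (1.60, adjusted p = 0.0279).

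As a list, 2 interferon response genes were higher in Ras with all arrays, Ifit2 (1.92 ± 0.13) and Ifi27 (1.19 ± 0.33), and 1 higher in Src, Mx1 (-0.55 ± 0.10), with a median of 0.72. Without Ras 3 the median was 0.05, 4 members were higher in Ras and 5 higher in Src, and without Ras 2, which leaves Ras 1 and Ras 3, 7 were higher in Ras. Leaving out Ras 1 or any 1 Src array gave 1 higher in Ras. Ifit2 was high in all 3 Ras arrays: it read 8.46, 8.30 and 8.82 in the Ras arrays and 6.61, 6.62 and 6.57 in the Src arrays. Of 13 MHC class I antigen-processing genes 1 was higher in Ras, B2m, with and without Ras 3 (0.85 ± 0.10 and 0.77), and 2 were higher in Src, Psmb10 (-0.54 ± 0.13) and Tap2 (-0.31 ± 0.08), with a median of -0.08. The count higher in Src was 4 without Ras 3 (median -0.23), 1 without Src 1 and 0 without Ras 1, Src 2 or Src 3, and 3 members were at least 2-fold higher in Ras 3 than in Ras 1 and Ras 2. The genes lowest in Ras 3 against the other Ras arrays were of other kinds. Casd1 measured 8.51, 8.69 and 4.37 across the Ras arrays and 8.44, 8.72 and 8.51 across the Src arrays. Casd1, a sialic acid acetyltransferase gene, and Prdx4, a peroxiredoxin gene (-0.73 ± 0.75), were low in Ras 3 alone among the 6 arrays. Without Ras 3, Prdx4 was higher in Ras (0.34, adjusted p = 0.0412). Slc43a3 (3.55), Armcx3 (3.70), Asb5 (2.82) and Raet1d (3.65) were higher in Ras without Ras 3, and with it the first of them no longer passed (2.27 ± 0.90, adjusted p = 0.115).

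**Figure D5:**
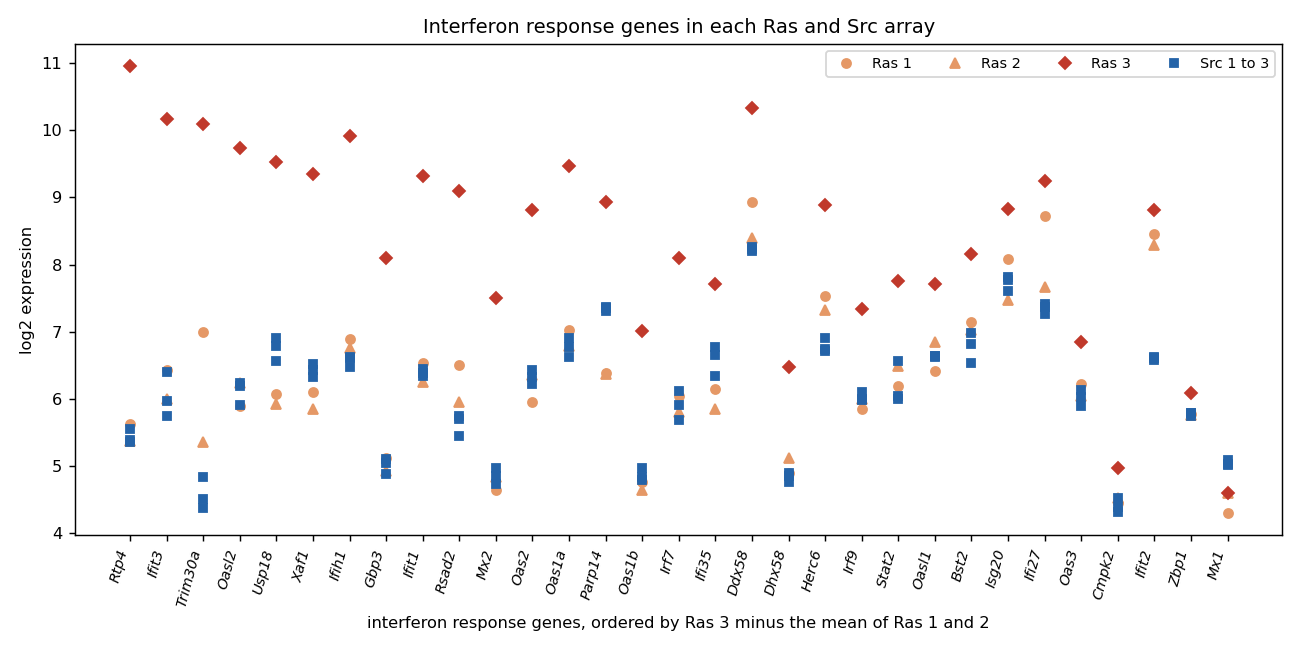
Log2 level of 31 interferon response genes in Ras 1, Ras 2 (orange), Ras 3 (red) and the 3 Src arrays (blue), ordered by the gap between Ras 3 and the mean of Ras 1 and Ras 2. Ras 3 lies at least 2-fold above that mean for 26 genes. Without Ras 3 the median difference between Ras and Src was 0.05, with 4 genes higher in Ras and 5 higher in Src.

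The interferon-stimulated response element, searched on both strands as GAAA, any 2 bases and GAAA again, is shown in the 250 bases before the start of 2 of these genes, chosen because they hold it, with the match in capitals. The Ifit3 stretch is chr19:34583279-34583528 on the plus strand and the Rsad2 stretch chr12:26456453-26456702 on the minus strand.
Ifit3: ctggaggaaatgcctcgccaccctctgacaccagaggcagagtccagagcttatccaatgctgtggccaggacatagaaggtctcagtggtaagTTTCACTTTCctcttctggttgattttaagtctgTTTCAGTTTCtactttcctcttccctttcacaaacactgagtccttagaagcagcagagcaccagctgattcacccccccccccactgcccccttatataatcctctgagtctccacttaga
Rsad2: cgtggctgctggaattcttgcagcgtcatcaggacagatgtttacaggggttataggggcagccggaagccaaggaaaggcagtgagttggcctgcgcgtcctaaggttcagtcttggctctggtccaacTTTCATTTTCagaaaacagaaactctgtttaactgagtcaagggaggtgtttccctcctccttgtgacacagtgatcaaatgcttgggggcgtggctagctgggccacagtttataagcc
The matches begin at -156 and -122 from the Ifit3 start and at -120 from the Rsad2 start. Rsad2 stood at 6.51, 5.96 and 9.10 in the Ras arrays and at 5.74, 5.70 and 5.44 in the Src arrays. Rsad2, the gene of the antiviral enzyme viperin, named here after its values were seen because its window is in the table, was more than 2 units higher in Ras 3 than in any other array. Of the genes at least 2-fold higher in Ras 3, 35 of 109 with a window (32.1%) held the motif, and of the interferon list 11 of 21 (52.4%), against 3.89% of all genes with a window and 3.23% of those called higher in Ras.

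Probe sets assigned to no gene were set apart from the comparison, and they differed mostly in 1 direction. Of 12146 such probe sets 866 (7.13%) were called higher in Ras and 0.42% higher in Src. Their median level was 5.87 to 5.93 in the Ras arrays, 5.62 to 5.65 in the Src arrays and 5.74 to 5.80 in the control arrays. This signal moves with the Ras group, and its part in the differences between genes was not tested.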

How the data were processed

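Total RNA from 15 cultures was labelled with biotin after amplification with the WT-Ovation Pico system, per the labels' protocols, and read on Affymetrix arrays. The deposited values are log2 expression levels made by the authors. The submitters' processing notes list RMA and version 1.1 of Affymetrix Expression Console; for background settings and genome build, nothing is stated in the sources used here. No depth applies to arrays, whose number limits the precision.

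Of 35556 probe sets, 21789 had 1 gene in the platform annotation, 1621 several and 12146 none. For 999 genes with several probe sets, the one with the highest mean over 15 arrays was taken, which left 19938 genes. No filter on low values was applied. The 6 Ras and Src arrays were fitted with limma 3.58.1 (lmFit, eBayes) in R 4.3.3, two-sided, with Benjamini-Hochberg adjustment over all genes, and again without Ras 3. Calls needed a 2-fold difference and an adjusted p under 0.05. Figures used Python 3.11.15 and matplotlib 3.10.9. The script was tested on data simulated with the unequal spreads of the Ras and Src arrays. The median estimates matched the set fold changes, but the false share among passed genes exceeded the threshold in both fits, most without Ras 3. The simulation without Ras 3 kept the spread of all 3 Ras arrays, so it does not describe the spread of Ras 1 and Ras 2 alone.

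The 44 lists held 885 genes, of which 832 were measured, and they and the contrast were chosen with earlier results of these data known. Named genes were the 15 highest and 15 lowest differences (passed, brighter group at or above 6.47, no overlap, call kept without Ras 3, no predicted or clone names), up to 8 passed and 3 brightest not passed members per list, the 10 largest differences of Ras 3 from Ras 1 and Ras 2 each way, and the transduced genes. Promoters came from RefSeq (GRCm38.p6). Alternatives varied centring, normalization, filter, probe set choice, variance model, array weights, arrays fitted, replicate block and replicates left out.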

Additional observations from a re-analysis of the deposited data

Results flagged for a closer look

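A signal outside the main measurement appeared in the probe sets that were set apart from the comparison. Of the probe sets assigned to no gene, 866 (7.13%) were called higher in the Ras than in the Src arrays, and for 391 of them every Ras array was also above every control array. Of the probe sets assigned to several genes, 18 (1.11%) were called higher in the Ras arrays, and for 15 of them every Ras array was above every control array.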

How the results depend on the processing

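The count of genes called was 1084 and stayed between 830 (genes with a mean below the median level left out) and 1158 (every single-gene probe set tested on its own) under the alternatives that kept the fold minimum. With no fold minimum 4430 genes passed, 2159 higher in Ras and 2271 higher in Src. Leaving out 1 array at a time gave 1041 to 1132 called genes, 543 to 637 higher in Ras and 474 to 523 or, without Ras 3, 529 higher in Src, and 291 to 394 list members that passed against 366 with all arrays. Centring each array on its median moved the median difference from -0.05 to 0.03 and gave 656 genes higher in Ras and 448 higher in Src. Marchf11 turned to -0.17 with its other probe set, and the cause was not tested. Of genes that did not pass, the difference changed sign with median centring Fosl1 to 0.034 and Vcl to 0.016; with quantile normalization Lrp6 to -0.024 and Pkp4 to -0.029; with array weights Il33 to 0.0057, Pkp4 to -0.042, Snai1 to -0.074 and Usp18 to -0.020. Top2a turned to 0.59 with probe sets averaged and 1.26 with its other probe set. Leaving out 1 array turned the sign of 16 such genes, whose ranges were Casd1 -2.12 to 0.044, Elf5 -0.035 to 0.10, Fosl1 -0.13 to 0.038, Ier3 -0.051 to 0.19, Il33 -0.27 to 0.11, Krt20 -0.010 to 0.11, Lrp6 -0.019 to 0.082, Mmp13 -0.071 to 0.45, Oasl2 -0.049 to 1.87, Pkp4 -0.029 to 0.058, Ppl -0.25 to 0.0079, Prdx4 -1.30 to 0.34, S100a6 -0.022 to 0.11, Snai1 -0.049 to 0.11, Syp -0.063 to 0.091 and Usp18 -0.75 to 1.05. Notch2 ranged from 0 to 0.074. The causes were not tested. Whether replicate numbers pair the arrays is not stated in the labels and was not settled by the values. Same-numbered arrays deviated together with correlations of 0.01, 0.11 and 0.03, and 4 of 6 arrays correlated best with their own number. With the replicate number as a block 1096 genes were called, and 1088 without Ras 3. With 3 arrays a group, small differences in the uneven Ras group can miss the threshold.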
